A study of Mus musculus with 6 samples.

Results

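Transcripts of 8 genes that are widely used as readouts of the actin cytoskeleton were followed across the 6 mRNA libraries of C2C12 cells, an established mouse skeletal myoblast line. The genes are Tagln, Cnn1, Acta2, Myl9, Ankrd1, Ctgf, Cyr61 and Thbs1. They were chosen by name as known targets of serum response factor (SRF) or of the YAP/TEAD complex, and all 8 were found among the 20950 entries of the table. Ctgf and Cyr61 are the older symbols of Ccn2 and Ccn1. Levels are given as FPKM, the fragments of a gene scaled to transcript length and to the mapped reads of the library, so levels can be set side by side between genes.

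The study asked how exosomes, the small membrane vesicles of serum, act on myogenic differentiation. Growing cells were kept in DMEM with 10% FBS (fetal bovine serum, 1 library). All other cultures were first grown in that medium to near confluence and then moved to 2% HS (horse serum, 1 library), 2% HS + exosome (1 library), 0.2% FBS (1 library) or 0.2% FBS + exosome (2 libraries, replicates 1 and 2), and the added exosomes came from FBS in the amount that 10% FBS holds. Neither the time of collection nor whether the 2 replicates were separate cultures is given in the labels. Each other condition has 1 library, so the spread between cultures of 1 condition is known only from these 2 libraries, and it may be technical.

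SRF binds the CArG box and works with either of 2 kinds of partner. The MRTF coactivators are held in the cytoplasm by monomeric actin and enter the nucleus when actin is driven into filaments, and the ternary complex factors respond to growth factor signalling through MAP kinases. YAP and TAZ are coactivators that the Hippo kinases exclude from the nucleus, and in the nucleus they bind DNA through the TEAD factors. Both routes respond to serum, cell spreading and tension, and many cytoskeletal and matricellular genes carry sites for both. In skeletal muscle, SRF is needed for sarcomeric actin genes, and TEAD factors bind the MCAT elements of muscle promoters.

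The 8 genes spanned a wide range of levels. Acta2, which encodes smooth muscle α-actin and is also made by differentiating skeletal myoblasts, had the highest mean over the 6 libraries (1888 FPKM). Ankrd1, a nuclear and titin-binding ankyrin repeat protein of striated muscle, followed with 704 FPKM. Thbs1 (256 FPKM) and Cyr61 (128 FPKM) encode secreted matricellular proteins, as does Ctgf (16.4 FPKM). Myl9 (217 FPKM) encodes a regulatory light chain of non-sarcomeric myosin II, and Tagln (115 FPKM) encodes transgelin, an actin-binding protein. Cnn1, the actin-binding calponin 1 of smooth muscle, was near the floor at 1.26 FPKM.

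**Figure D1:**
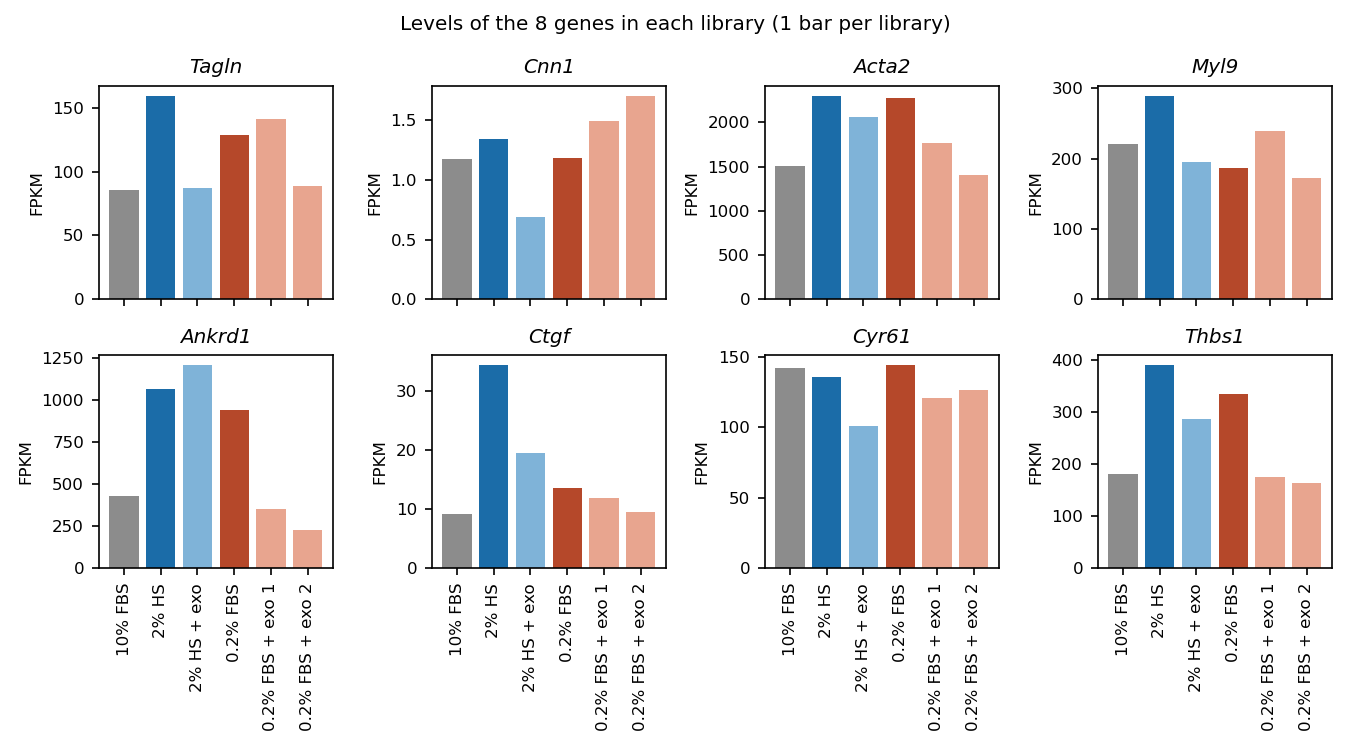
FPKM of each of the 8 genes on a linear axis that starts at 0, with 1 bar per library and no error bars because each bar is a single library. The 2% HS library holds the highest bar for 5 of the 8 genes, and replicate 2 of 0.2% FBS + exosome holds the lowest bar for 4.

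The FPKM values carry no counts. The spacing of the low values of 2442 genes with 1 annotated transcript placed the depths between 33700000 and 39400000 reads per library. At these depths Cnn1 rested on an estimated 51.2 to 125 reads per library, while Ctgf rested on at least 732 and Acta2 on up to 163244. Skeletal muscle markers were present in every library, including 10% FBS, where the embryonic myosin Myh3 stood at 738 FPKM. Of 6 smooth muscle markers, the defining Myh11 and Myocd stayed below 1 FPKM in all 6 libraries, while Actg2, Smtn, Synpo2 and Lmod1 were measured in each, from 2.90 FPKM for Lmod1 to 128 FPKM for Actg2. The summed levels of 4 endothelial markers (0.110 to 0.284 FPKM), 4 blood markers (1.38 to 2.06 FPKM) and 4 fat markers (1.97 to 3.18 FPKM) were low, with 1 endothelial and 1 blood marker at 0 throughout.

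Promoter sequence could be read for 5 of the 8 genes. The RefSeq promoter windows (GRCm38.p6, 250 bases before to 50 bases after the start) held Acta2, Cnn1, Myl9, Ankrd1 and Cyr61. Tagln, Ctgf and Thbs1 were not matched. Both strands were searched for the CArG box, for a CArG box with 1 base of its core not A or T, and for the TEAD motif CATTCC, none of which overlapped another. The exact CArG box occurs in 1.63% of 32851 such windows, the relaxed form in 8.5% and the TEAD motif in 14.7%. The 30 bases around each match are printed 5′ to 3′ on the strand of the gene, with the match in capitals, because SRF and TEAD are known to bind such elements.

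Acta2 held relaxed CArG boxes that begin 84 bases (chr19:34255438-34255467, minus strand) and 34 bases (chr19:34255388-34255417) upstream of the start, and a TEAD motif on the opposite strand 146 bases upstream (chr19:34255502-34255531). These 3 stretches lie in an exon of 1 of the 2 GENCODE transcripts of Acta2 and outside the other.
Acta2 relaxed CArG box, distal: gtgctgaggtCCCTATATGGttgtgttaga
Acta2 relaxed CArG box, proximal: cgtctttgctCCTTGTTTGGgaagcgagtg
Acta2 TEAD motif: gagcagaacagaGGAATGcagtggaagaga

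Myl9 was the only one of the 5 genes with an exact CArG box, 161 bases upstream (chr2:156775293-156775322, plus strand), and it had a relaxed box 99 bases upstream (chr2:156775355-156775384). Both lie outside the annotated Myl9 transcripts.
Myl9 CArG box: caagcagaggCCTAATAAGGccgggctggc
Myl9 relaxed CArG box: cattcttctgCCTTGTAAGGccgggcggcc

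Ankrd1 had 2 TEAD motifs on the opposite strand, 210 bases (chr19:36120037-36120066, minus strand) and 123 bases upstream (chr19:36119950-36119979), within an exon of 1 of its 6 annotated transcripts. Cyr61 had 1 TEAD motif on the strand of the gene, at 103 bases upstream (chr3:145650071-145650100, minus strand), outside its transcript. The Cnn1 window (chr9:22099003-22099302) held none of the 3 motifs.
Ankrd1 TEAD motif, distal: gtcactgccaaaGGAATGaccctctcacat
Ankrd1 TEAD motif, proximal: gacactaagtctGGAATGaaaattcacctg
Cyr61 TEAD motif: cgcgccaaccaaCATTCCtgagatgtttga

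A match in a window is a description of the sequence and not a site of binding, which was not measured in these cells.

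Of the comparisons given a test, only that of exosomes in 0.2% FBS held differences among the 8 genes that passed it. The exosome comparison within 2% HS and the serum comparisons were given no test. Ankrd1 fell to 0.38 and 0.24 of its control level in replicates 1 and 2, and Thbs1 fell to 0.52 and 0.49 of it. Acta2, Ctgf and Cyr61 were lower in each exosome library by smaller amounts, Cnn1 was higher in each, and Tagln and Myl9 were on opposite sides of the control in the 2 libraries. Changes are differences of log2(FPKM + 1) from the 1 control library, and on this scale low genes such as Cnn1 appear to change less than their FPKM do. Both replicates were set against this same control, so the SD given with a mean change leaves out the spread of the control. The threshold for a fold change was the study's, above 1 or below −1. The exosome libraries of 0.2% FBS were shifted as a whole: the median change of the 10731 genes averaging 1 FPKM or more was 0.14 (0.09 in replicate 1 and 0.18 in replicate 2), which scaling of every library to the same 75th percentile brought to 0.007. The median of the 8 genes was −0.27 as deposited and −0.41 after scaling.

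Ankrd1 (chr19:36111961-36120099, minus strand, mm10) stood at 942 FPKM in the 0.2% FBS library. With exosomes it was at 353 FPKM in replicate 1 and 229 FPKM in replicate 2. Both exosome libraries were also below the 431 FPKM of growing cells in 10% FBS. The change was −1.41 and −2.03, with a mean of −1.72 (SD 0.44, n = 2), and it was the only one of the 8 genes past the fold threshold in each replicate. Of the 10731 genes, 2.25% were past −1 in the mean of both replicates, against 1 of these 8. In limma with 1 mean per condition, the change of Ankrd1 had an SE of 0.38 and an adjusted p of 0.0258, which was 0.271 when the fit also took in the genes below 1 FPKM. The fit has 1 residual degree of freedom, from the 2 exosome libraries, and it assumes that the single libraries spread alike.

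Thbs1 (chr2:118111876-118127133, plus strand), whose product binds the matrix and activates latent TGF-β, had 336 FPKM in 0.2% FBS, which became 176 and 163 FPKM with exosomes. Both values lay beside the 182 FPKM of 10% FBS. The mean change of −0.98 (SD 0.07, n = 2) was just inside the threshold, and that of replicate 2 alone was past it (−1.03), as was the mean after scaling (−1.13). limma gave an SE of 0.24 and an adjusted p of 0.0374, or 0.244 without the filter on low genes. With Ankrd1 it made 2 of 8 genes called lower by limma, where 4.33% of the 10726 genes tested were. None of the 8 was called higher, where 8.2% of genes were. The calls over all genes split as 464 lower and 879 higher, and as 695 and 493 after scaling.

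Acta2 (chr19:34241090-34255590, minus strand) had 2276 FPKM in 0.2% FBS against 1768 and 1406 FPKM with exosomes. The mean change was −0.53 (SD 0.23, n = 2), with a limma SE of 0.51 and an adjusted p of 0.526. Ctgf (chr10:24595442-24598683, plus strand) went from 13.6 FPKM to 11.97 and 9.49 FPKM, a mean change of −0.32 (SD 0.22, n = 2, adjusted p = 0.265 in limma). Cyr61 (chr3:145646976-145649981, minus strand) went from 144 FPKM to 121 and 126 FPKM, a mean change of −0.22 with close replicates (SD 0.04, n = 2, adjusted p = 0.508 in limma). These 3 genes were thus below the control in each exosome library without passing the test. Of the 10731 genes, 27.5% were lower in both exosome libraries, against 5 of the 8 here.

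The other 3 genes are actin and myosin binding or regulating genes. Tagln (chr9:45929619-45936058, minus strand) was at 129 FPKM in 0.2% FBS, and its exosome libraries disagreed, with 141 FPKM in replicate 1 and 88.8 FPKM in replicate 2. Myl9 (chr2:156775420-156781658, plus strand) did the same, at 186 FPKM without exosomes, 239 FPKM in replicate 1 and 172 FPKM in replicate 2. Its mean change was 0.13 (SD 0.33, n = 2) as deposited and −0.02 after scaling, and that of Tagln was −0.20 (SD 0.47, n = 2), positive in replicate 1 and negative in replicate 2. Neither has a direction that both replicates share. Cnn1 (chr9:22099216-22109630, plus strand) had 1.18 FPKM in 0.2% FBS against 1.49 and 1.70 FPKM with exosomes, a mean change of 0.25 (SD 0.08, n = 2, adjusted p = 0.414 in limma). It was the 1 gene of the 8 higher in both exosome libraries, where 55.2% of all genes were.

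**Figure D2:**
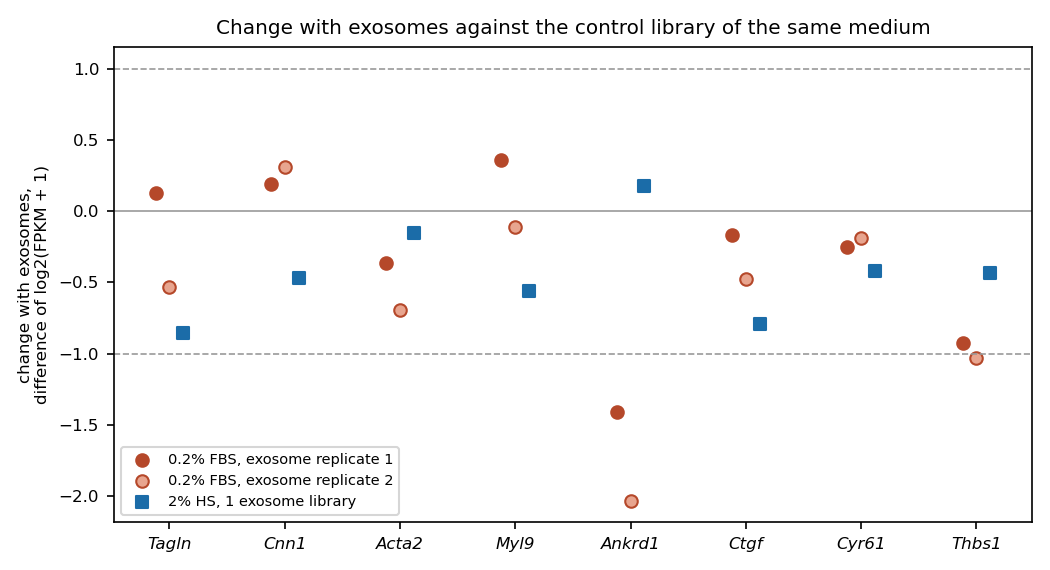
Change with exosomes for each of the 8 genes, as the difference of log2(FPKM + 1) from the control library of the same medium, with circles for the 2 replicates in 0.2% FBS and squares for the 1 library in 2% HS. Dashed lines mark the fold threshold of 1 in each direction, and only Ankrd1 has both circles below the lower line while its square lies above 0.

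The replicates themselves differed for several of these genes. Replicate 1 was above replicate 2 by 0.66 for Tagln, 0.62 for Ankrd1 and 0.47 for Myl9 on the log2 scale, where the median absolute difference over the 10731 genes was 0.147. Of all genes, 2.37% differed by more than Tagln, 2.80% by more than Ankrd1 and 6.24% by more than Myl9. Thbs1 (0.11), Cnn1 (−0.12) and Cyr61 (−0.06) were closer than most genes. Over all expressed genes the median signed difference, replicate 1 minus replicate 2, was −0.069, so genes in general leaned towards replicate 2. Of 9 immediate-early genes that SRF drives with the ternary complex factors, Egr3 and Mcl1 were not higher in replicate 2. The other 7 were, with Fos at 100.2 against 8.03 FPKM in replicate 1. The part of this in the difference between the replicates was not tested.

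In 2% HS the single exosome library was below the single control library for 7 of the 8 genes, where 58.7% of the 10731 genes were lower, and the exception was Ankrd1, which was higher. None of the 8 passed the fold threshold in either direction, where 0.652% of genes did. The 2% HS comparison has no replicate of its own and was given no test of its own, and it shares no library with the comparison in 0.2% FBS.

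Tagln went from 159 FPKM in 2% HS to 87.4 FPKM with exosomes, a change of −0.86, and 0.503% of genes had a lower value. Ctgf went from 34.4 to 19.5 FPKM, a change of −0.79 with 0.587% of genes lower. Myl9 went from 289 to 196 FPKM, a change of −0.56 with 1.71% of genes lower. These encode an actin-binding, a matricellular and a myosin protein. Cnn1 had 1.34 FPKM in the control and 0.690 FPKM in the exosome library (−0.47, or −0.87 with a pseudocount of 0.1, on an estimated 113 and 51.2 reads), the lowest ratio of the 8 in FPKM (0.514, against 0.549 for Tagln). Thbs1 was at 390.0 and 288 FPKM (−0.44), and Cyr61 at 136 and 101 FPKM (−0.42). Acta2 differed little, at 2297 and 2067 FPKM (−0.15). Ankrd1 was at 1066 and 1205 FPKM (0.18), and 87.5% of genes had a lower value. The median over the 8 genes was −0.45, against −0.04 for all genes.

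The difference between the media was tested in limma as the change in 0.2% FBS minus that in 2% HS. For Ankrd1 it was −1.90 (SE 0.57, adjusted p = 0.135 in limma), and for Cnn1 it was 0.72 (SE 0.29, adjusted p = 0.235 in limma). None of the 8 passed, where 1.17% of 10726 genes did, split as 93 lower and 32 higher (130 and 21 after scaling). At an unadjusted p under 0.05 limma held 2 of the 8, Ankrd1 and Cnn1, and 2091 of the 10726 genes, a share close to that of the 8. Ankrd1 was thus lower with exosomes in 0.2% FBS and higher in 2% HS, by a difference that did not pass the test over all genes.

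A change common to both media was estimated in limma from the 5 differentiating libraries with the medium as a term. It was −0.91 for Ankrd1 (SE 0.44), whose changes in the 2 media had opposite signs, −0.75 for Thbs1 (SE 0.20), −0.52 for Ctgf (SE 0.18) and −0.48 for Tagln (SE 0.26), each with an adjusted p of 0.705. Cyr61 (−0.31), Acta2 (−0.37), Myl9 (−0.17) and Cnn1 (−0.06) did not pass either, with adjusted p of 0.705 to 0.932. No gene passed in this fit (0%), and 708 of the 10726 genes had an unadjusted p under 0.05, Thbs1 and Ctgf among them.

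Low serum itself, without exosomes, was compared with growth medium. The 2% HS library was above 10% FBS for 7 of the 8 genes and the 0.2% FBS library was above it for 7, where 40.1% and 38.6% of all genes were, with medians over the 8 genes of 0.75 and 0.55 against −0.08 and −0.09 over all genes. These comparisons share the 10% FBS library, and each shares its low-serum library with an exosome comparison, so their values are given side by side only. Past the threshold were 3 of the 8 genes in 2% HS and 1 in 0.2% FBS, all higher, and in each medium 1.79% of genes were past it in that direction. There is 1 library on each side, and no test was made.

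Ankrd1 was 2.47-fold above the 431 FPKM of 10% FBS in 2% HS and 2.18-fold above it in 0.2% FBS, changes of 1.30 and 1.13 on the log2 scale. Thbs1 was 2.14-fold and 1.84-fold above its 182 FPKM, changes of 1.09 and 0.88. Ctgf showed the largest ratio of the 8 genes, 3.73-fold from 9.23 to 34.4 FPKM in 2% HS, but 1.47-fold in 0.2% FBS. Between the 2 low-serum media Ctgf thus differed by 1.28. Acta2 was 1.52-fold and 1.51-fold above its 1511 FPKM, with nearly the same level in the 2 media. Tagln was 1.86-fold and 1.51-fold above its 85.4 FPKM. Myl9 was 1.31-fold above its 220.4 FPKM in 2% HS and at 0.844 of it in 0.2% FBS. Cyr61, at 142 FPKM in 10% FBS, differed from it by −0.06 and 0.02, and Cnn1 by 0.10 and 0.002.

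**Figure D3:**
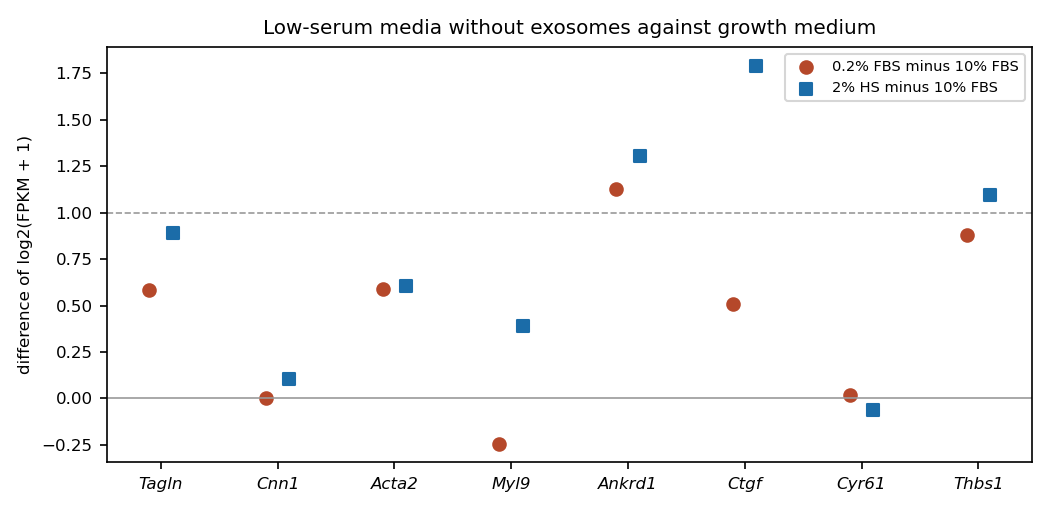
Change of each of the 8 genes in 0.2% FBS (circles) and 2% HS (squares) without exosomes against 10% FBS, as the difference of log2(FPKM + 1) between single libraries. The dashed line marks the fold threshold of 1, which Ankrd1 passes in both media and Ctgf and Thbs1 in 2% HS only, while Cnn1 and Cyr61 lie near 0.

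The order of the 6 libraries was set beside the 1 difference between the 2 replicates, as a description and not a test, since that difference may be technical. The step between the replicates themselves was left out where they were neighbours. For Tagln, Acta2 and Myl9, none of the 5 steps between neighbouring libraries was larger than that difference. For Ankrd1, 1 of the 4 other steps was larger, the 1.13 between 0.2% FBS and 10% FBS. For Cnn1, 1 of 4 was larger, between 10% FBS and the lowest library, 2% HS + exosome. For Ctgf, 2 of 4 were larger, from 2% HS to 2% HS + exosome and from there to 0.2% FBS. For Thbs1, 3 of 4 were larger, and the step from 10% FBS to replicate 1 was not. For Cyr61, 3 of 4 were larger, but its replicates lay only 0.06 apart and its highest and lowest libraries differed 1.42-fold.

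Across the 6 libraries, Acta2, Ankrd1 and Thbs1 followed each other most closely, with Pearson r of 0.94 for Acta2 and Thbs1, 0.92 for Ankrd1 and Thbs1 and 0.91 for Acta2 and Ankrd1. Ctgf joined them at 0.77 to 0.85, whereas Cyr61 did not exceed 0.08 with any of these 4. Cnn1 ran against Ankrd1 (−0.75). These values are descriptions over 6 libraries of 5 conditions.

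The genes most like each of the 8 were taken among the genes that varied by at least 1 on the log2 scale, 1296 candidates in all. Ankrd1 was most like Myom3 and Myom1, the M-band proteins (r of 0.998 for each), and Acta2 was most like Chrng, the fetal acetylcholine receptor subunit (0.997), and Pea15a (0.995). Thbs1 was most like Pygm, muscle glycogen phosphorylase (0.994), and Hfe2 (0.993). For these 3 genes at least 1 of the nearest genes belongs to skeletal muscle, but the share of muscle genes among the candidates was not counted. Acta2, with a range of 0.71, would itself not have been a candidate. Tagln was most like Wnt10a (0.928) and Cpa1 (0.922), Ctgf like Tmem158 (0.980) and Ctrb1 (0.969), Cnn1 like Rhod (0.962) and Prrx2 (0.953), Cyr61 like Nptx1 (0.904) and Acss2 (0.893), and Myl9 like Atp9a (0.841).

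Skeletal muscle markers moved with the same libraries. Of 9 such markers 8 were lower in both exosome libraries of 0.2% FBS, where 27.5% of all genes were, with a median change of −1.13. Their summed FPKM was 13919 in 0.2% FBS, 6327 and 4543 in the exosome replicates and 6026 in 10% FBS, against 11957 in 2% HS and 11412 in 2% HS + exosome. Much of the sum came from Acta1 and Actc1, at 5322 and 3401 FPKM in 0.2% FBS. In limma 1 of the 9 was called lower (Tmem8c, the fusion protein myomaker, −1.37, adjusted p = 0.0485) and 1 higher (Myf5, a factor of undifferentiated myoblasts, 0.96, adjusted p = 0.0196), where 4.33% of all genes were called lower and 8.2% higher. In 2% HS, 6 of the 9 were lower and 3 higher with exosomes, where 58.7% of all genes were lower. The median was −0.09, against −0.04 for all genes. In whole cultures, fewer cells of a type and less RNA per cell cannot be told apart. The part of the muscle program in the changes of Ankrd1, Acta2 and Thbs1 was not tested.

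Other actin genes were set beside Acta2. Acta1 and Actc1, the skeletal and cardiac sarcomeric actins, were past −1 in both exosome replicates of 0.2% FBS, Acta1 at −1.19 and −1.72 and Actc1 at −1.29 and −1.99. The cytoplasmic actins Actb (0.53 and 0.59) and Actg1 (0.65 and 0.88) and the smooth muscle γ-actin Actg2 (0.45 and 0.32) were higher in both, before and after scaling. In limma none of the 5 actins passed (adjusted p from 0.0792 for Actc1 to 0.334 for Actb), where 4.33% of all genes were called lower and 8.2% higher, so a count of 0 says little for so few genes. Acta2 made up 20.7% of the summed FPKM of Acta1, Actc1 and Acta2 in 0.2% FBS and 32.2% and 36.3% in the exosome replicates, against 31.1% in 10% FBS and 25.2% and 24.2% in 2% HS without and with exosomes.

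The nearest relatives of the 8 genes were listed as a family of 15, of which 12 could be tested. limma called 2 of the 12 lower and 1 higher, where 4.33% and 8.2% of all genes were. Ankrd2, another stretch-responsive ankyrin repeat protein of muscle, went from 228 FPKM in 0.2% FBS to 51.4 and 14.3 FPKM with exosomes (−3.01, adjusted p = 0.0182 in limma). Ankrd23 went from 14.6 FPKM to 7.22 and 5.31 FPKM (−1.12, adjusted p = 0.0150 in limma). In 2% HS the values were 0.18 (Ankrd1), 0.24 (Ankrd2) and −0.27 (Ankrd23). Thbs3 rose from 2.19 to 3.76 and 4.32 FPKM (0.66, adjusted p = 0.0483 in limma), opposite to Thbs1, and Thbs2 had 43.0 FPKM in the control and 26.8 and 32.5 FPKM in the exosome libraries. Cnn2 and Tagln2, the broadly expressed relatives of Cnn1 and Tagln, stood at 135 and 56.8 FPKM in 0.2% FBS and were higher in both exosome libraries (0.67 and 0.49), without passing the test.

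Other targets of the same factors lay on both sides of their controls. Of 24 further MRTF/SRF targets of the actin cytoskeleton, 15 were higher and 7 lower in both exosome libraries of 0.2% FBS (13 and 9 after scaling), where 55.2% of all genes were higher and 27.5% lower as deposited. Their median change was 0.38 over the 23 tested, against 0.14 for all genes. limma called 1 of the 23, Filip1l, higher (0.95, adjusted p = 0.0182), where 8.2% of all genes were. Zyx (0.83, adjusted p = 0.0537 in limma) and Vcl (−0.06, adjusted p = 0.909 in limma), which encode the focal adhesion proteins zyxin and vinculin, did not pass, nor did Tpm2, a tropomyosin, at 1399.9 FPKM in 0.2% FBS and 729 and 607 FPKM with exosomes (−1.07, adjusted p = 0.112 in limma). In 2% HS, 20 of the 24 were lower with exosomes, where 58.7% of all genes were, with a median of −0.12 over the 23.

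Of 20 further YAP/TEAD targets, 11 were higher and 2 lower in both exosome libraries of 0.2% FBS (9 and 6 after scaling). As deposited, the share higher was near the 55.2% of all genes, and 27.5% of all genes were lower. Their median over the 18 tested was 0.18 as deposited and 0.05 after scaling. limma called 3 of the 18 higher and none lower, where 8.2% and 4.33% of all genes were, namely F3, which encodes tissue factor (0.96, adjusted p = 0.0170), Fjx1 (0.79, adjusted p = 0.0281) and Ptpn14 (0.60, adjusted p = 0.0446). In 2% HS, 14 of the 18 were lower, where 58.7% of all genes were, with a median of −0.15. The 8 genes stood lower than either list in each medium, with medians of −0.27 and −0.45, and this was not tested.

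**Figure D4:**
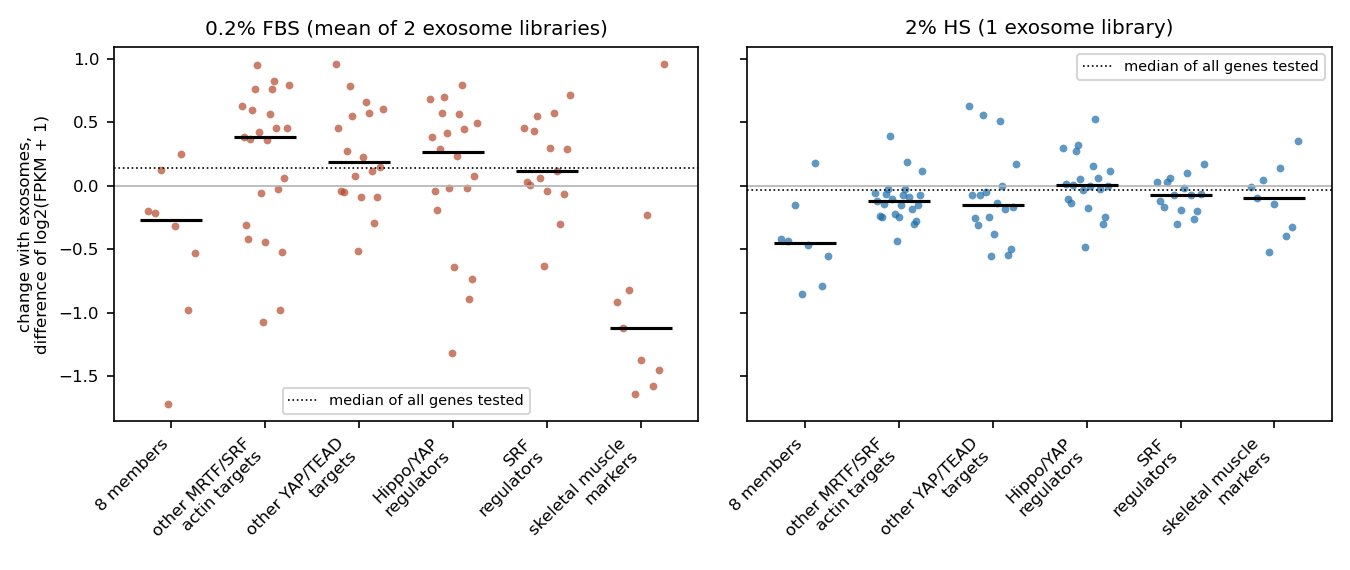
Change with exosomes, as the difference of log2(FPKM + 1), in 0.2% FBS (left, mean of 2 exosome libraries) and 2% HS (right, 1 library), for the 8 genes and 5 lists, with 1 point per gene that averaged 1 FPKM or more. Thick lines are list medians and the dotted line is the median of all genes, and the 8 genes have a median below that line in both media (−0.27 and −0.45).

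The regulators were measured at the level of their transcripts only. Srf had 24.7 FPKM in 0.2% FBS against 32.8 and 35.6 FPKM with exosomes (0.46, adjusted p = 0.0967 in limma). Mrtfa, listed as Mkl1, was at 15.0, 16.4 and 16.1 FPKM, and Mrtfb, listed as Mkl2, was at 4.17, 3.57 and 4.86 FPKM in the same libraries. None of the 15 SRF regulators tested passed in limma, a count near the shares of all genes (4.33% lower and 8.2% higher), with Ssh1, a cofilin phosphatase, at 0.55 (adjusted p = 0.0735).

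Among 20 Hippo/YAP regulators tested, limma called 3 lower and 2 higher, where 4.33% of all genes were called lower and 8.2% higher. Tead4, a TEAD factor of differentiating muscle, fell from 29.3 FPKM to 13.1 and 9.45 FPKM (−1.32, adjusted p = 0.0101) and was past the threshold in each exosome library. Growing cells in 10% FBS had 15.3 FPKM, and 2% HS had 21.9 FPKM without and 27.6 FPKM with exosomes, so Tead4 was higher with exosomes in that medium, as was Ankrd1. The other calls were Vgll2 (−0.89, adjusted p = 0.0218), a TEAD cofactor of skeletal muscle, and the kinase Taok1 (−0.74, adjusted p = 0.0293), and on the higher side Vgll4 (0.79, adjusted p = 0.0201), a TEAD cofactor that competes with YAP, and Tead3 (0.68, adjusted p = 0.0319). Yap1 had 15.9 FPKM in the control and 25.6 and 22.8 FPKM in the exosome libraries (0.57, adjusted p = 0.0541 in limma), and Wwtr1, which encodes TAZ, at 42.9, 40.8 and 43.8 FPKM. Tead1 (20.6, 21.0 and 19.1 FPKM) and Tead2 (11.7, 17.0 and 22.5 FPKM) were not called.

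Some limits concern single genes. The longest coding transcript of each of the 8 genes shares no exact stretch of 75 bases with another annotated gene. Near matches were not searched for, so how reads were assigned between similar genes such as the actins was not tested. Exons on the opposite strand overlap Tagln (Pcsk7 and Gm48529), Ctgf (Gm15270) and Thbs1 (Gm29233), and although the kit marks strand, the strand setting used for the FPKM values is not given in the sources used here.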

How the data were processed

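Libraries of mRNA (TruSeq Stranded mRNA, 75 bp single-end reads) were made from 6 C2C12 samples. The authors trimmed reads with cutadapt 1.9.1, mapped them to mm10 with TopHat2 2.1.0 with FPKM from Cufflinks, deposited as 1 table of 6 columns. The annotation is not given in the sources used here, and the labels and the methods name different RNA kits. FPKM already divides by transcript length and depth, so no count test was possible.

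Changes were differences of log2(FPKM + 1), called above 1 or below −1. limma 3.58.1 (R 4.3.3), with a mean-variance trend and Benjamini-Hochberg adjustment at 0.05, was run on 10726 uniquely named genes averaging 1 FPKM or more. The code was checked on simulated data, which does not test the assumption that single libraries spread alike. The 8 genes, the lists and their tests were chosen with earlier results of these data known. Named besides the 8 were SRF, MRTF, YAP, TAZ and TEAD genes, relatives, actins, genes called by limma or past the threshold in both exosome libraries, the 2 genes most like each (1 for Myl9, the other is not reported here), and further list members chosen after their values were seen. Alternatives were a pseudocount of 0.1, values below 1 raised to 1, scaling to the 75th percentile, no low-value filter, no trend and leaving out each exosome replicate. Positions come from GENCODE vM21 on mm10.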

Additional observations from a re-analysis of the deposited data

Results flagged for a closer look

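Ankrd1 and Cnn1 moved in opposite directions with exosomes in the 2 media in every library. For Ankrd1 the difference (0.2% FBS minus 2% HS) of the exosome changes was −1.90, with −1.41 and −2.03 in the 0.2% FBS replicates and 0.18 in 2% HS. The adjusted p of this difference in limma was 0.135, with a range of 0.103 to 0.400 over the alternatives. For Cnn1 the difference was 0.72, with 0.19 and 0.31 in 0.2% FBS and −0.47 in 2% HS, and the adjusted p in limma was 0.235 (0.201 to 0.359). Neither difference passed the test, and Cnn1 rested on an estimated 51.2 to 125 reads per library.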

How the results depend on the processing

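Within a single medium, no paired analysis was possible because the groups compared share fewer than 2 replicate numbers. In the titles, number 1 marks the 2% HS pair, number 2 marks 0.2% FBS with replicate 1 and number 3 marks replicate 2 alone, so number and medium cannot be told apart. The limma fit of a common change without replicate 2, with the medium as a term, is therefore also the fit paired by these numbers, and it called 0 genes (294 at an unadjusted p under 0.05). Among the values of the 8 genes, 8 moved beyond the replicate SD under a pseudocount, floor or scaling alternative, mostly Cnn1 and Cyr61, and no called value reversed. Leaving out 1 of 2 replicates cannot move a mean by more than their SD, so it says nothing on stability, and it turned the sign of Tagln (0.13 without replicate 2) and Myl9 (−0.11 without replicate 1). In 0.2% FBS, 2 of the 8 genes were past −1 with exosomes after 75th percentile scaling (Ankrd1 and Thbs1), and 1 to 2 when a replicate was left out, 2 without replicate 1. Over all entries, 244 were lower and 195 higher in that comparison, which became 506 and 547 with a pseudocount of 0.1, 350 higher with values below 1 raised to 1, 310 lower and 111 higher after scaling, and 186 to 309 lower and 157 to 319 higher without a replicate (309 and 319 without replicate 1). In 2% HS, 33 lower and 39 higher entries became 151 and 196 with the pseudocount of 0.1 and 54 and 70 with low values raised. In 0.2% FBS against 10% FBS, 77 lower and 195 higher became 396 and 434 with the pseudocount of 0.1 and 190 lower with low values raised. In 2% HS against 10% FBS, 56 and 198 became 298 and 435, and 120 lower.

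limma called 1343 genes, 464 lower and 879 higher, and 2 of the 8 genes in 0.2% FBS. Without the filter on low values it called 0 genes and 0 of the 8 (3120 genes at an unadjusted p under 0.05), and scaling gave 695 lower and 493 higher. The adjusted p of Ankrd1 ranged from 0.0201 to 0.271 and that of Thbs1 from 0.0256 to 0.244 over the alternatives. For the difference between media, 125 genes became 0 without the filter (2275 at an unadjusted p under 0.05) and 45 without the trend. The cause was not tested, other than that the unfiltered fit tests 16443 genes. Leaving out an exosome replicate leaves no residual degree of freedom in this fit, which then could not be fitted. Among the 8 genes Cnn1 rested on the fewest estimated reads (51.2 to 125 per library), and an effect of depth was not tested.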

Other observations

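The other branch of SRF targets holds the immediate-early genes that the ternary complex factors drive. Of 9 such genes 6 were past −1 in 0.2% FBS and 6 in 2% HS against 10% FBS, where 74 and 56 of the 10731 genes were, with medians of −1.33 and −1.45. The other 3 were Egr3 (−0.06 and −0.47), Nr4a1 (−0.04 and −0.23) and Mcl1 (−0.05 and 0.11). The 8 genes had medians of 0.55 and 0.75 in the same comparisons, and the difference between the lists was not tested. Fos, a subunit of the AP-1 factor, stood at 113 FPKM in 10% FBS, 4.04 in 2% HS and 3.04 in 0.2% FBS. With exosomes in 0.2% FBS it was at 8.03 and 100.2 FPKM, past the threshold in each library but far apart (adjusted p = 0.105 in limma). None of the 9 was called by limma there, where 4.33% of all genes were called lower and 8.2% higher. Egr1, a zinc finger factor, was at 143 FPKM in 10% FBS, 44.7 in 0.2% FBS and 38.9 and 85.9 FPKM in the exosome replicates, on both sides of its control.

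Fibroblast and smooth muscle markers were read in the same libraries. The summed FPKM of 6 fibroblast markers was 153 in 10% FBS, 222 in 0.2% FBS and 392 and 319 in the exosome replicates, and 274 and 296 in 2% HS without and with exosomes. Of the 5 averaging 1 FPKM or more, 3 were higher in both exosome libraries of 0.2% FBS, where 55.2% of all genes were. The other 2, Lum and Pdgfra, lay on both sides of their controls. limma called 1 of the 5 higher, where 8.2% of all genes were. It was Postn, a matricellular protein as are Thbs1, Ctgf and Cyr61. Postn rose from 44.6 FPKM in 0.2% FBS to 107 and 76.1 FPKM with exosomes (1.00, adjusted p = 0.0285 in limma). The sum of 6 smooth muscle markers lay between 130 and 180.1 FPKM in all libraries. Of the 4 averaging 1 FPKM or more, 2 were higher (Actg2 and Smtn) and 2 lower (Lmod1 and Synpo2) in both exosome libraries of 0.2% FBS. After scaling 1 was higher and 3 lower, as Smtn went from 0.09 and 0.03 to −0.03 and −0.15. Over all genes 55.2% were higher and 27.5% lower as deposited. limma called 1 of the 4 lower, where 4.33% of all genes were. This was Synpo2, an actin-bundling Z-disc protein, which fell from 30.8 to 14.5 and 12.6 FPKM (−1.13, adjusted p = 0.00884 in limma). The part of these markers in the changes of the 8 genes was not tested.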
